A study of Caenorhabditis elegans with 2 samples.

Results

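Translation initiation and elongation factors are the soluble proteins that start and extend polypeptide chains on the ribosome. The genes described here were the protein-coding genes of Caenorhabditis elegans whose symbol starts with eif-, ife-, iff-, ifg- or eef-, which gave 39 of 19985 protein-coding genes. Their promoters were read in chromatin immunoprecipitation followed by sequencing (ChIP-seq) of HMG-11, a chromatin protein of the HMGA type with AT-hooks, short segments that bind the narrow groove of A/T-rich stretches. The sequenced chromatin came from whole hermaphrodites of strain TH184, genotype unc-119(ed3) III; ddIs101, at the third larval stage (L3). These had been synchronised as starved first-stage larvae and grown for a further 52 h. The strain stably carries HMG-11 fused at its C terminus to a GFP-FLAG tag, and sonicated chromatin was precipitated with an antibody against GFP. There was 1 group of 2 biological replicates, so no comparison between conditions and no test was possible, and no control library was analysed here. Whole animals mix all tissues, so a region bound in few cells and one bound weakly in many cannot be told apart.

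Each replicate had a list of 30000 candidate regions on genome build ce11, and a further list of 30000 regions had been called from both replicates together (the pooled list). The 4037 regions kept by the authors' irreproducible discovery rate (IDR) threshold were the 4037 strongest pooled regions by signal, and are called peaks below. For each replicate, its own 4037 strongest regions were taken as the matching set. Signal is the authors' value for the height of a region against a control, on an unstated scale, so it orders regions within a list and is not compared between lists. Pooled signal ran from 18.9 to 529.0, and a peak had a signal of at least 67.9. A region was counted for a gene when its summit lay between 1000 bp upstream and 200 bp downstream of an annotated transcript start, and rank 1 is the strongest region of a list. Some genes have several annotated starts, and each distance is from the start nearest to that summit.

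Translation begins when eIF2 brings the initiator tRNA to the small ribosomal subunit, eIF3 and the small factors eIF1 and eIF1A organise scanning from the cap-bound eIF4E and eIF4G, and eIF2B recharges eIF2 with GTP for the next round. In elongation, eEF1A delivers aminoacyl-tRNAs and is recharged by the eEF1B complex, eIF5A eases peptide bond formation at difficult residues, and eEF2 moves the ribosome by a codon. In the worm several of these proteins come in paralogues with different tissues, such as the germline IFF-1 and the somatic IFF-2 forms of eIF5A.

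The sequences at 8 summits are shown because they include the strongest region among all these genes, the paralogue contrasts that the results turn on, and a region found in both replicates without a pooled peak. They were read from the RefSeq genome sequence of assembly WBcel235 (ce11), 5′ to 3′ on the strand of the gene, over the summit and up to 50 bp on either side, stopping at the annotated transcript start. Capitals mark every run of 5 or more A or T bases. The strongest summit, that of the somatic eIF5A gene iff-2 (chrII:8561375-8561475, minus strand), was 43.6% A+T, whereas the weak region of its germline paralogue iff-1 (chrIII:9747194-9747290, minus strand) was 70.1% A+T.
iff-2: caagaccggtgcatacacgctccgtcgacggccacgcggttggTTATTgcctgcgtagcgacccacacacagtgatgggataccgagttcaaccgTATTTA
iff-1: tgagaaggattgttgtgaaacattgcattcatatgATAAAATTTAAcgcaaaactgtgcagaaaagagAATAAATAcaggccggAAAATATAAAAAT
The longest A/T run was 6 bases in the iff-2 sequence and 13 bases in the iff-1 sequence. The eEF1A genes eef-1A.1 (chrIII:6972039-6972139, minus strand) and eef-1A.2 (chrX:7823239-7823339, plus strand) had summits of similar rank and of 55.4% and 46.5% A+T.
eef-1A.1: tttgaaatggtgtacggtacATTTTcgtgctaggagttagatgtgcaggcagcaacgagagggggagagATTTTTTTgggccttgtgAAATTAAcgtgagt
eef-1A.2: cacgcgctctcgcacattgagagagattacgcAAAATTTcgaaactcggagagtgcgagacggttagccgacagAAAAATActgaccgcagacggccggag
Both eEF1A sequences held the words AATT, TTTTT and GAGAG, read on either strand. The eEF1B subunit genes eef-1B.1 (chrIII:7973387-7973458, minus strand, 72 bp) and eef-1G (chrV:10965623-10965718, plus strand, summit of replicate 1) were 44.4% and 47.9% A+T.
eef-1B.1: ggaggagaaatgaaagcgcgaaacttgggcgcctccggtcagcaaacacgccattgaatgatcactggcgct
eef-1G: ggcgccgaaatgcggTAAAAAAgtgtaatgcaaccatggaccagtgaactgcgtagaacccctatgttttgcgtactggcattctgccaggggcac
The eIF4E gene ife-2 (chrX:382835-382935, minus strand) and the eIF3 subunit gene eif-3.G (chrII:8442347-8442447, plus strand) were 46.5% and 47.5% A+T.
ife-2: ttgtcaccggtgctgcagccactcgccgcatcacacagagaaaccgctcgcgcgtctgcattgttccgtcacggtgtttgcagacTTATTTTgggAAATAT
eif-3.G: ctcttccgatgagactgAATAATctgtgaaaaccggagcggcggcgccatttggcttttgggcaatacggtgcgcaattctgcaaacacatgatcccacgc

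HMG-11 peaks lay in the promoter windows of 27 of the 39 translation factor genes, which is 69.2%, against 14.9% of all protein-coding genes. A window held any listed pooled region for 33 of the 39, and of these 33 genes 27 (81.8%) had a peak, against 43.5% of the 6861 protein-coding genes with a listed region. The replicate lists gave 27 genes among 31 with a listed region in replicate 1 (87.1%, against 41.5% of all such genes). In replicate 2 they gave 27 among 35 (77.1%, against 41.9%). The median pooled rank of the 33 genes was 1631, with quartiles of 804 and 3564, against a median of 5241 over all protein-coding genes with a listed region. Of the 27 genes with a pooled peak, 22 also had one of the strongest regions of both replicates overlapping it, 3 only of replicate 1 and 2 only of replicate 2.

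**Figure D1:**
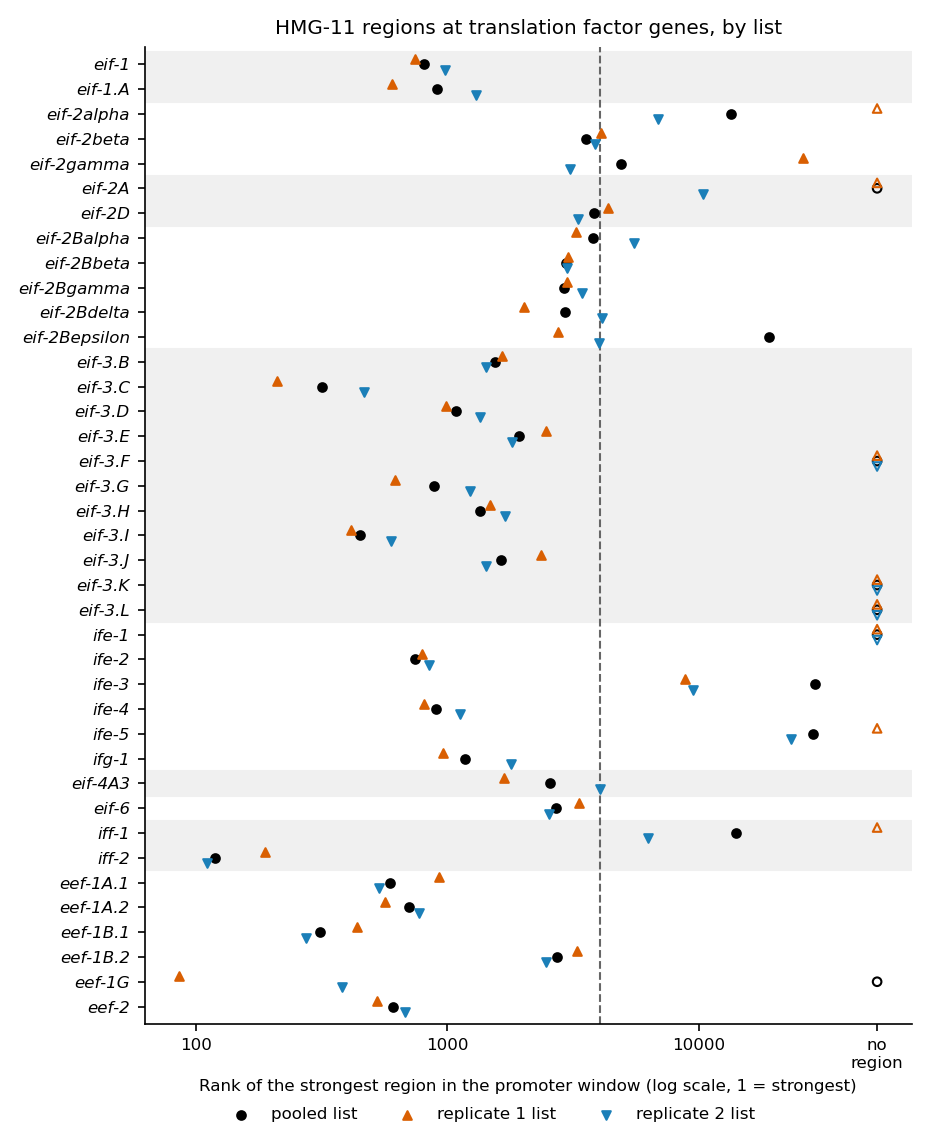
Rank of the strongest region in the promoter window of each of the 39 translation factor genes (horizontal axis, log scale, 1 is strongest) in the pooled, replicate 1 and replicate 2 lists; shaded bands separate roles, open symbols mark genes with no region in that list, and the dashed line is rank 4037. Most symbols lie left of the line, eef-1G and eif-2Bepsilon lie left of it in both replicates only, and the lists lie far apart for eif-2gamma, eif-2Bepsilon, ife-3 and iff-1.

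The genes that elongate the chain ranked highest as a role, with 5 of 6 having a peak and a median pooled rank of 605 among those 5. For eef-1A.1 (chromosome III, 6970026 to 6971712), the eEF1A gene long known as eft-3 whose promoter is used to drive transgenes in most somatic tissues, the strongest region had rank 589 and signal 172 in the pooled list. It had rank 924 and signal 65.1 in replicate 1, and rank 535 and signal 106 in replicate 2. The summit lay 377 bp upstream in the 540 bp that separate eef-1A.1 from rfc-4, a clamp loader gene on the opposite strand whose start is nearer. For eef-1A.2 (chromosome X, 7823654 to 7825769), the other eEF1A gene, the region had rank 706 and signal 163 in the pooled list, rank 563 and signal 76.5 in replicate 1, and rank 770 and signal 94.9 in replicate 2. The eef-1A.2 summit lay 365 bp upstream and in no other coding gene's window. The order of the eEF1A genes differed between the replicates, eef-1A.2 being the stronger in replicate 1 and eef-1A.1 in replicate 2.

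The guanine exchange subunits of eEF1B were less alike. For eef-1B.1 (chromosome III, 7972382 to 7973386), the region had rank 311 and signal 206 in the pooled list, rank 438 and signal 81.8 in replicate 1, and rank 274 and signal 127 in replicate 2. For eef-1B.2 (chromosome IV, 15037331 to 15039551), it had rank 2733 and signal 89.2 in the pooled list, rank 3279 and signal 36.2 in replicate 1, and rank 2455 and signal 56.7 in replicate 2. In each of the 3 lists eef-1B.1 was therefore the stronger of the pair. The eef-1B.1 summit lay 22 bp upstream, in an exon of the noncoding gene F54H12.9, and in the window of aco-2, the mitochondrial aconitase gene on the opposite strand. The eef-1B.2 summit lay 171 bp upstream between genes and was not shared with another coding gene.

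For eef-2 (chromosome I, 9163531 to 9166952), the gene of the translocase eEF2, the strongest region had rank 605 and signal 171 in the pooled list. It had rank 524 and signal 78.0 in replicate 1, and rank 678 and signal 99.2 in replicate 2. Its summit lay 8 bp downstream of the transcript start, and it was the only one of the 27 strongest summits downstream of the nearest start. A further peak, of rank 2504, lay 198 bp downstream of another of the 3 annotated starts of eef-2. The window of the opposite gene clsp-1, a claspin gene of the replication checkpoint, also held the strongest summit.

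The gene of the eEF1 gamma subunit, eef-1G (chromosome V, 10965719 to 10967922), had no region in the pooled list. Its window nevertheless held the region of rank 86 with signal 114 in replicate 1 and the region of rank 382 with signal 116 in replicate 2. Both replicate summits fell on the same base, 46 bp upstream of the start. By replicate 1 alone eef-1G was the highest ranked of the 39 genes. Across the genome, 24 of the 3176 strongest replicate 1 regions that overlapped a strongest replicate 2 region overlapped no pooled region, and 49 overlapped no peak. Of the 2413 protein-coding genes with a strongest region of both replicates in the window, 52 (2.15%) had no peak, and among the translation factors these were 2 of 24, eef-1G and eif-2Bepsilon. The reason for the missing pooled regions was not tested.

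The forms of eIF5A differed widely. For the somatic iff-2 (chromosome II, 8559375 to 8561367), the region had rank 119 and signal 253 in the pooled list, rank 188 and signal 98.7 in replicate 1, and rank 111 and signal 157 in replicate 2. For the germline iff-1 (chromosome III, 9745862 to 9747193), it had rank 14019 and signal 32.5 in the pooled list and rank 6245 and signal 30.9 in replicate 2, and replicate 1 listed no region. No list placed an iff-1 region among its 4037 strongest, while iff-2 was in the 200 strongest of each list. The summits lay at similar distances, 58 bp upstream of iff-2 and 47 bp upstream of iff-1. The iff-1 window overlaps that of cdk-1, the mitotic kinase gene on the opposite strand, whose own window held the same weak region, and the iff-2 region was shared with F54C9.14. Of the enzymes that put hypusine on eIF5A, deoxyhypusine synthase (dhps-1) had a pooled region of rank 15171 that was no peak, and deoxyhypusine hydroxylase (dohh-1) had none.

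**Figure D2:**
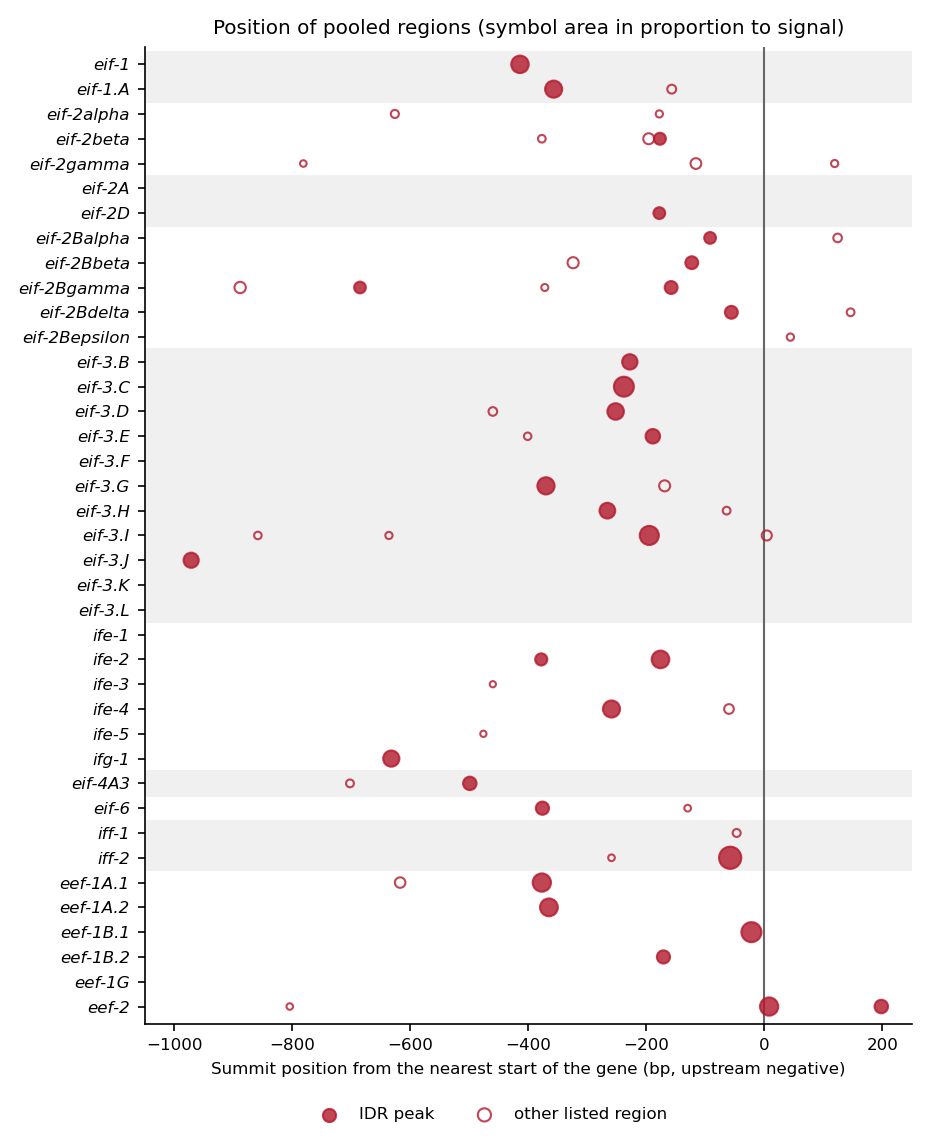
Summit position of every pooled region in the promoter windows of the 39 genes, as bp from the nearest transcript start of the gene (horizontal axis, upstream negative), with symbol area in proportion to signal, filled symbols for peaks and open symbols for other listed regions. The strongest symbols lie mostly between 50 and 400 bp upstream, and 6 rows are empty.

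Both genes of the factors that keep the scanning ribosome open had peaks. For eif-1 (chromosome II, 4990831 to 4993580), which encodes eIF1, the region had rank 804 and signal 157 in the pooled list, rank 741 and signal 70.0 in replicate 1, and rank 974 and signal 87.0 in replicate 2. For eif-1.A (chromosome IV, 4810934 to 4811983), which encodes eIF1A, it had rank 912 and signal 150 in the pooled list, rank 603 and signal 74.8 in replicate 1, and rank 1303 and signal 77.5 in replicate 2. Their summits lay 414 and 357 bp upstream. The eif-1 region was also in the windows of pigb-1 and vps-24, and that of eif-1.A in the window of H06H21.37. The vps-24 gene, on the opposite strand and 417 bp from eif-1, had a start nearer to the eif-1 summit.

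The subunits of eIF2 itself lay around the threshold or below it. For eif-2beta (chromosome I, 8026601 to 8028752), the region had rank 3564 and signal 74.3 in the pooled list, rank 4089 and signal 32.4 in replicate 1, and rank 3841 and signal 42.2 in replicate 2. For eif-2gamma (chromosome I, 2313271 to 2315992), the GTP-binding subunit, it had rank 4911 and signal 59.3 in the pooled list, rank 25984 and signal 10.9 in replicate 1, and rank 3064 and signal 49.3 in replicate 2. For eif-2alpha (chromosome I, 2072680 to 2076925), whose product is the target of the eIF2 kinases, it had rank 13363 and signal 33.5 in the pooled list and rank 6860 and signal 29.3 in replicate 2, and replicate 1 listed none. Of these 3 genes only eif-2beta had a pooled peak, replicate 1 had none of them among its strongest regions and replicate 2 had eif-2beta and eif-2gamma. The eif-2gamma summit lay 762 bp upstream in replicate 1 and 116 bp upstream in replicate 2. Replicate 1 also listed a region 144 bp upstream of eif-2gamma, of nearly equal rank 26203 and signal 10.8. The eif-2alpha summit lay 626 bp upstream, within a coding exon of phb-1, the prohibitin gene that precedes it.

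Of the 5 genes of eIF2B, the exchange factor of eIF2, 4 had a peak. Their pooled ranks were 2914 for eif-2Bgamma, 2926 for eif-2Bdelta, 2957 for eif-2Bbeta and 3791 for eif-2Balpha, all in the weaker part of the peak list. The eif-2Balpha region (gene at chromosome III, 9543119 to 9544404) had signal 71.2 in the pooled list, rank 3235 and signal 36.4 in replicate 1, and rank 5499 and signal 33.2 in replicate 2. It was shared with mut-7, a gene of RNA silencing. The eif-2Bbeta region was shared with Y47H9C.8, whose start was nearer. The window of eif-2Bgamma held 4 pooled regions, of which a second, 685 bp upstream, was a peak of rank 3823.

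The catalytic subunit gene eif-2Bepsilon (chromosome II, 8661869 to 8664721) had a pooled region of only rank 18887 and signal 27.0, with its summit 44 bp downstream of the start. Replicate 1 listed a region of rank 2758 and signal 40.0, and replicate 2 one of rank 4013 and signal 40.8. Both replicate summits fell on the same base, 157 bp upstream, on the first base of piga-1, the gene on the opposite strand, and the weak pooled region covered that base. All 5 eIF2B genes were thus among the strongest regions of replicate 1, and 3 of 5 were in replicate 2.

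Of the factors that can place the initiator tRNA without eIF2, eif-2D and eif-2A, the first lay just inside the threshold. For eif-2D (chromosome II, 5691721 to 5693939), the region had rank 3821 and signal 70.7 in the pooled list, rank 4362 and signal 31.1 in replicate 1, and rank 3295 and signal 47.0 in replicate 2. It was shared with ndub-5, a gene of mitochondrial complex I. For eif-2A (chromosome II, 10416800 to 10419237), the pooled and replicate 1 lists held no region, and replicate 2 held one of rank 10395 and signal 23.1.

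Among the 11 genes of eIF3, the scaffold that joins the small subunit to the other factors, 8 had a peak and 3 had no region in any list. The 8 had pooled ranks from 317 to 1928, with a median of 1214, and all 8 were also among the strongest regions of both replicates. For eif-3.C (chromosome I, 9976426 to 9979662), a core subunit, the region had rank 317 and signal 204 in the pooled list, rank 210 and signal 96.1 in replicate 1, and rank 465 and signal 110 in replicate 2. For eif-3.I (chromosome I, 2485861 to 2489787), it had rank 449 and signal 187 in the pooled list, rank 414 and signal 82.8 in replicate 1, and rank 594 and signal 103 in replicate 2. For eif-3.G (chromosome II, 8442767 to 8444175), an RNA-binding subunit, it had rank 881 and signal 152 in the pooled list, rank 620 and signal 74.1 in replicate 1, and rank 1231 and signal 79.7 in replicate 2. These 3 genes were stronger by rank in replicate 1 than in replicate 2. The eif-3.C and eif-3.G regions lay 238 and 370 bp upstream and in no other coding gene's window, and that of eif-3.I lay 195 bp upstream and was shared with abtm-1, a mitochondrial transporter gene.

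The other 5 eIF3 peaks had pooled ranks of 1078 for eif-3.D, 1351 for eif-3.H, 1550 for eif-3.B, 1631 for eif-3.J and 1928 for eif-3.E. The eif-3.D and eif-3.H regions were shared with R08D7.4 and C41D11.3, whose starts were nearer, and that of eif-3.E with B0511.17. Those of eif-3.B and eif-3.J were in no other coding gene's window. The eif-3.J summit lay 971 bp upstream, the farthest of the 27, within the 3′ UTR of slc-25A46. The 3 eIF3 genes without a region in any list were eif-3.F (chromosome II, 9331643 to 9333970), eif-3.K (chromosome V, 12954002 to 12955229) and eif-3.L (chromosome II, 5619584 to 5622483). The gene upstream of eif-3.F was wbp-2, on the same strand and 115 bp away, and that upstream of eif-3.K was pqn-68, on the same strand and 793 bp away. A peak of rank 2109 lay 1511 bp upstream of eif-3.K, in the window of pqn-68. The start of eif-3.L lay 405 bp from that of npl-4.2 on the opposite strand, and the nearest upstream peak was 27134 bp away. The genes egl-45 and cif-1, which encode further eIF3 subunits under other symbols and were looked up after the values were seen, had no pooled region. For iffb-1, the eIF5B gene, there was a peak of rank 1972 that was shared with fbxa-66.

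The cap-binding genes, which encode 5 forms of eIF4E, split into 2 genes with strong peaks and 3 without. For ife-2 (chromosome X, 381385 to 382709), a somatic form, the region had rank 746 and signal 160 in the pooled list, rank 790 and signal 68.9 in replicate 1, and rank 843 and signal 91.5 in replicate 2. For ife-4 (chromosome X, 1104212 to 1106251), a form of nerve and muscle cells, it had rank 899 and signal 150 in the pooled list, rank 807 and signal 68.3 in replicate 1, and rank 1118 and signal 83.0 in replicate 2. Both peaks lay between genes, 176 and 259 bp upstream, and neither was shared with another coding gene.

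For ife-1 (chromosome III, 13343417 to 13344618), which encodes a germline form, no list held a region in the window. For ife-3 (chromosome V, 6584 to 7828), the form closest to vertebrate eIF4E, the region had rank 28812 and signal 19.6 in the pooled list, rank 8830 and signal 21.4 in replicate 1, and rank 9490 and signal 24.4 in replicate 2. For ife-5 (chromosome II, 12280660 to 12284139), another germline form, it had rank 28418 and signal 19.9 in the pooled list and rank 23245 and signal 13.9 in replicate 2, and replicate 1 listed none. None of these 3 genes came near the threshold in any list. A peak of rank 329 and signal 203 did lie 1078 bp upstream of ife-3, just outside the window and inside that of its neighbour B0348.10, and one of rank 1982 lay 1266 bp upstream of ife-5. In the ife-5 region 27 of 66 words of 36 bases around the summit occurred elsewhere in the genome. No other of the 33 regions examined had such a word, and windows with no listed pooled region were not examined. Whether repeated words affected the placing of reads was not tested. The ife-1 gene overlaps dro-1 upstream on the same strand, and its nearest peaks lay 2323 bp upstream of the first of its annotated starts and 951 bp downstream of another.

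The eIF4G scaffold gene ifg-1 had a peak of pooled rank 1176 and signal 135, 632 bp upstream of the nearest annotated start, in the 5′ UTR of M110.3. The eIF4A helicase gene inf-1, whose product works with these proteins but whose symbol lies outside the rule, just missed the threshold, with pooled rank 4071 and ranks of 3249 and 5184 in replicates 1 and 2. The related helicase gene eif-4A3, of the exon junction complex, had a peak of rank 2559 with ranks of 1674 and 4040 in the replicates, and its summit lay in the 5′ UTR of vps-20. For eif-6, which encodes the factor that keeps the free large ribosomal subunit from joining, the peak had rank 2711 and ranks of 3322 and 2523 in the replicates. It lay 376 bp upstream of eif-6 and was shared with pbs-2, whose start was nearer.

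Most of the 27 strongest summits lay a short way upstream of the start. Their median position was 228 bp upstream, against 230 bp upstream for all protein-coding genes with a peak, and 21 of 27 lay 50 to 400 bp upstream, against 60.7% of all genes with a peak. They fell between genes in 21 cases, in a 5′ UTR in 3, in a noncoding exon in 2 and in a 3′ UTR in 1. The median distance between the summits of the replicates was 21 bp, with a maximum of 127 bp, against a median of 27 bp over all genes with a peak. Another coding gene's window held the same summit for 16 of the 27, against 49.0% of all genes with a peak, and for 19 the nearest coding start was the gene's own, against 74.2%. A shared region cannot be given to either gene from these lists.

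The nearest upstream gene, at any distance, lay on the opposite strand for 17 of the 27 genes with a peak and 4 of the 12 without. Over all protein-coding genes this arrangement was found for 65.1% with a peak and 42.9% without. The nearest upstream gene lay on the same strand and under 500 bp away for 3 of the 27 and 5 of the 12, against 13.6% and 21.8% over all protein-coding genes. Closely spaced genes on the same strand in the worm can be transcribed together as an operon from a promoter farther upstream. Whether these genes are in operons was not analysed here.

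The replicates ranked the translation factor genes alike. Over the 31 genes with a region in both replicate lists Spearman's rho of the ranks was 0.88, against 0.82 over 5945 protein-coding genes, as a description of libraries from the same strain and stage. Replicate 1 gave the higher place for 19 of the 31 genes and replicate 2 for 12. In the pooled list 12 of the 33 genes with a region (36.4%) were among the 1000 strongest, against 11.9% of all protein-coding genes with a region. These 12 were iff-2, eef-1B.1, eif-3.C, eif-3.I, eef-1A.1, eef-2, eef-1A.2, ife-2, eif-1, eif-3.G, ife-4 and eif-1.A.

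**Figure D3:**
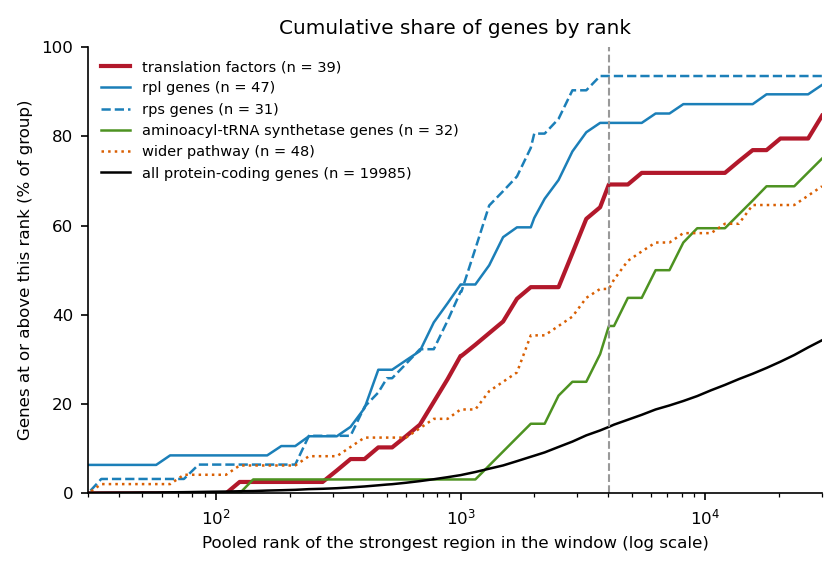
Share of each gene group (vertical axis, % of all genes of the group) whose strongest promoter region had at least the pooled rank on the horizontal axis (log scale), for the 39 translation factors, 47 rpl, 31 rps and 32 aminoacyl-tRNA synthetase genes, 48 wider pathway genes and all 19985 protein-coding genes; the dashed line is rank 4037. At that line the translation factors stand at 69.2%, below both ribosomal protein groups and above the synthetases and the wider pathway.

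Other genes of protein synthesis give a scale for these counts, with no test between the groups. A peak was found for 39 of 47 genes of large-subunit ribosomal proteins (rpl), with a median rank of 975 among the 43 with a listed region. It was found for 29 of 31 genes of small-subunit proteins (rps), with a median rank of 1014 among 29. Aminoacyl-tRNA synthetase genes, whose enzymes charge tRNAs, had a peak in 12 of 32 cases and a median rank of 4188 among 24. The translation factors, at 27 of 39 and 1631, thus lay between the ribosomal proteins and the synthetases.

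A wider list of protein synthesis genes named 57 symbols, of which 48 were in the annotation, and 22 of these had a peak, 11 had a weaker listed region and 15 had none. The 22 were 45.8% of the 48, against 14.9% of all protein-coding genes, and 66.7% of the 33 with a listed region, against 43.5%. The count fell to 10 when a summit was given only to the gene with the nearest coding start. Under that rule 37.3% of all protein-coding genes with a listed region had a peak, and the matching share of the wider list was not computed. The strongest was at ifet-1, the eIF4E-binding translational repressor of the germline, with pooled rank 31 and signal 310 and ranks of 130 and 19 in replicates 1 and 2. That region was shared with the ribosomal protein gene rps-1. The next were larp-1, an RNA-binding protein gene, with rank 68 and ranks of 36 and 155 in the replicates, and pab-2, a poly(A)-binding protein gene, with rank 124 and ranks of 295 and 87. The 4th, drr-2, which encodes an eIF4H-like factor, had rank 220 with ranks of 292 and 190 in the replicates. The larp-1 region, 670 bp upstream, was shared with wip-1 and the drr-2 region with set-16, while that of pab-2 was not shared. The other poly(A)-binding gene, pab-1, had a peak of rank 1157 that was shared with rpl-30.

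Regions at genes that act on the factors described above ranged from strong peaks to none. The eEF2 kinase gene efk-1 had a region of rank 8049 and the TOR kinase gene let-363 one of rank 26792, neither a peak. The S6 kinase gene rsks-1 had no pooled region. Of the 6 dph- genes, whose products build the diphthamide residue of eEF2, dph-3 had a peak of rank 2628 that was shared with dcaf-1. Weaker regions of rank 13798 and 23323 were listed for dph-7 and dph-6, and dph-1, dph-2 and dph-5 had no pooled region. The following genes were named after their values were seen. The kinases that phosphorylate eIF2 alpha, gcn-2 and pek-1, had peaks of rank 3445 and 3025, that of gcn-2 being shared with Y81G3A.1. The gene gcn-1, which activates gcn-2, had a peak of rank 3231, and the eIF4E kinase gene mnk-1 one of rank 890. Of further genes of the TOR pathway, rheb-1 had a peak of rank 743 that was shared with spk-1, and daf-15 had one of rank 1833. The rict-1 peak of rank 1934 lay 542 bp upstream of rict-1 and 131 bp upstream of gfm-1. As gfm-1 was also in the wider list, this region was counted for both genes. For ragc-1 there was a weaker region of rank 5220, and mlst-8 and raga-1 had no pooled region.

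The summits were less A/T-rich than the sequence on either side of them. Counted from 50 bp before to 50 bp after the summit, the 27 translation factor peaks had a median A+T content of 52.5%, with quartiles of 46.5% and 58.4%, equal to the median of 52.5% over 2462 peaks in coding promoter windows. The 7594 weaker regions in such windows had a median of 63.4%. For the 6 translation factor genes with a listed region but no peak, the strongest region of each gave a median of 61.9%. Mean A+T content within 25 bp of the translation factor summits was 49.1%, while it was 68.9% at 100 to 200 bp upstream and 70.2% at 100 to 200 bp downstream. Over all protein-coding genes with a peak the corresponding values were 51.5%, 66.5% and 66.0%. How base composition affected recovery or sequencing in these libraries was not tested.

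**Figure D4:**
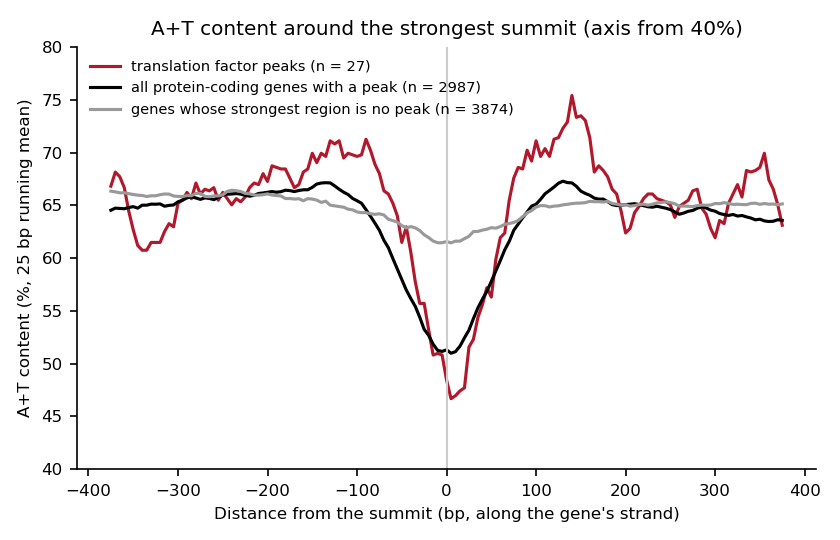
Mean A+T content (vertical axis, %, running mean over 25 bp, axis from 40%) by distance from the strongest summit along the strand of the gene (horizontal axis, bp), for 27 translation factor peaks, 2987 protein-coding genes with a peak and 3874 genes whose strongest region is no peak. Peaks show a dip at the summit flanked by A/T-rich sequence, and the weaker regions show a shallow dip.

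Within the translation factors the stronger peaks were the less A/T-rich. The 12 strongest had a median A+T content of 47.0% and the other 15 one of 57.4%. Spearman's rho between A+T content and rank was 0.53 over the 27 peaks and 0.40 over the 2462 peaks in coding windows, as a description across regions of the same libraries. The lowest value was 39.6%, at the weak peak of eif-2beta, and the highest 69.3%, at that of eif-2Balpha. For short words, both strands of the same stretch were searched. AATT was present at 17 of 27 translation factor peaks (63.0%), 48.9% of peaks in coding windows and 71.3% of weaker regions there. In the same order, TTTTT was present at 44.4%, 54.7% and 72.5%, and AATAAT at 18.5%, 8.33% and 15.4%. GAGAG was present at 25.9%, 43.1% and 20.1%. CCGCCC was present at 7.41%, 6.38% and 3.23%, and the longer CTCCGCCC that contains it at none of the 27, 1.99% and 0.922%. None of the 6 words searched was present at 7 of the 27 peaks, those of iff-2, eef-1B.1, eif-3.C, ife-2, ife-4, eif-3.E and eif-2Bgamma.

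**Figure D5:**
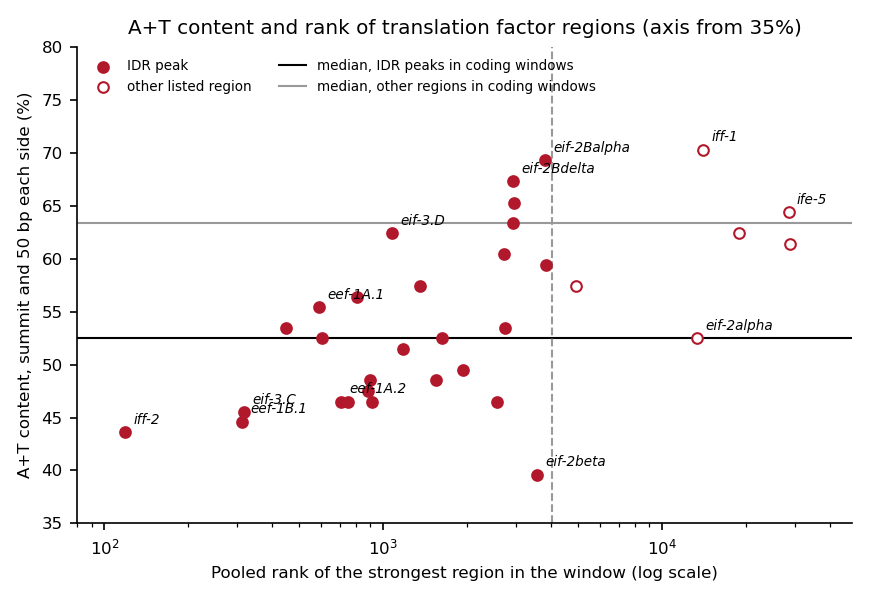
A+T content of the strongest summit and 50 bp on either side (vertical axis, %, axis from 35%) against its pooled rank (horizontal axis, log scale) for the 33 translation factor genes with a listed region, filled for peaks and open for other regions; horizontal lines are the medians of peaks (52.5%) and of weaker regions (63.4%) in coding promoter windows and the dashed line is rank 4037. The strongest regions, led by iff-2 at 43.6%, lie low, and most regions right of the line lie high.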

How the data were processed

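Peak lists from ChIP-seq of GFP-tagged HMG-11 in 2 biological replicates of whole L3 worms were used, 1 group per the labels. The authors deposited for each region a signal value, which was used to rank regions within a list, and a −log10 q-value, which was capped at 3.86 in the pooled list for 3637 regions and used only to count regions at the cap (25 of the 27 translation factor peaks). Per the labels and the deposited notes, regions had been called per replicate and on both replicates together, with a control, and thresholded by IDR. Aligner, caller and signal scale: not given in the sources used here. Each of the 4037 IDR peaks had the coordinates of a pooled region, so the IDR list equals a signal threshold on the pooled list and does not by itself show that replicates matched. The lists do not give read numbers, so depth is unknown and not covered by any interval, and only the 30000 strongest regions of a list could be seen.

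Only the ce11 lists were used. The ce10 lists were not used here, and no coordinate was converted. Genes and transcripts came from Ensembl release 115 (WBcel235), bases from the RefSeq sequence of that assembly, and every region ended within its chromosome. Window assignment, ranks and base composition were computed in Python 3.11.15 with pandas 2.3.3, numpy 2.4.6 and scipy 1.17.1. Only the assignment of summits to windows and to nearest starts was tested on simulated data. Coordinates count from 1. Overlap meant at least 1 bp.

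Full values were given for the 12 translation factor genes with the strongest pooled region, the nearest 3 on each side of the peak threshold, those with no listed region, and the eef-1A, eef-1B, iff and ife families. Of the wider list, the 4 strongest and the eIF4A, 4E-binding, eEF2 kinase, poly(A)-binding, TOR, S6 kinase, hypusine and diphthamide genes were named. Other names were chosen after their values were seen. The genes and lists were chosen with earlier results of these data known. Alternatives changed the window, gene assignment, peak threshold, replicate, overlap, transcripts and the width for base composition.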

Additional observations from a re-analysis of the deposited data

How the results depend on the processing

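The count of 27 translation factor genes with a peak ranged from 17 to 31 over the alternatives. The share of genes with a listed region that had a peak is given beside that over all protein-coding genes. The count was 25 with the window limited to 500 bp upstream (80.6% against 40.7% with 500 bp downstream and 42.9% with 200 bp), 31 with 2000 bp upstream (91.2% against 47.1%), 18 for the stronger 2018 peaks (54.5% against 24.8%) and 22 for peaks overlapping the strongest regions of both replicates (66.7% against 34.6%). It was 28 with any overlap (84.8% against 43.6%) and 27 with coding transcripts only (81.8% against 43.5%). It was 19 when a summit counted for the nearest coding start alone (73.1% against 37.3%) and 17 for the nearest start of any gene class (68.0% against 35.2%). An alternative chosen after seeing the data, which added regions strong in both replicates, gave 29. Leaving out either replicate gave 27 genes with a peak both times, but not the same 27. Without replicate 2, eef-1G and eif-2Bepsilon came in and eif-2beta and eif-2D dropped out. Without replicate 1, eef-1G, eif-2Bepsilon and eif-2gamma came in and eif-2Balpha, eif-2Bdelta and eif-4A3 dropped out. Either omission gave 31 to 35 genes with a listed region and a median rank of 1470 to 1788. It also gave 22 to 24 wider pathway genes with a peak and a median A+T content of 51.5% to 53.5%. The median rank was 1928 with the windows limited to 500 bp upstream. The wider pathway count of 22 fell to 10 under both nearest-start rules and to 17 with either window limited to 500 bp upstream. It was 29 with 2000 bp upstream, 17 for the stronger 2018 peaks and 19 for peaks overlapping the strongest regions of both replicates. With any overlap and with coding transcripts only it stayed at 22. Matching shares of the wider list under these alternatives were not computed. The median A+T content of the translation factor peaks was 49.0% with 25 bp on either side of the summit and 60.7% with 100 bp, by construction a narrower and a wider reading of the dip. With the window from 2000 bp upstream, ife-3 took the peak of rank 329, ife-5 that of rank 1982 and eif-2alpha that of rank 2709, while with 500 bp eif-2alpha had rank 19506. No paired analysis was possible because there was 1 group and no test. Every rank is limited by unknown read depth, and no control library was analysed here.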
